A study of Mus musculus with 8 samples.

Results

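The vomeronasal receptor genes examined here are the mouse genes whose symbol begins with Vmn1r or Vmn2r and that lie on chromosomes 5, 8, 9, 10, 11, 14, 15, 17 and 19, the 9 chromosomes that the region lists of all 3 marks cover broadly. Of 565 such genes on the 21 main chromosomes (GENCODE M21, GRCm38), 110 met this rule, among 22392 genes of the 9 chromosomes and 55413 genes in all. They were found on 5 of the 9 chromosomes, with 16 on chromosome 5, 3 on chromosome 8, 9 on chromosome 10, 6 on chromosome 14 and 76 on chromosome 17. GENCODE classed 67 as protein-coding, and most others as pseudogenes, 36 of them unprocessed. The 110 records carried 109 symbols, since Vmn2r-ps111 names 2 overlapping records on chromosome 14.

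The 3 methylation states of histone H3 lysine 9, H3K9me1 (mono), H3K9me2 (di) and H3K9me3 (tri), were profiled by chromatin immunoprecipitation and sequencing (ChIP-seq) in fibroblasts from mouse embryos (MEFs). There were 8 samples in 4 groups of 2, namely fragmented input DNA and 1 immunoprecipitation per mark, all labelled wild type. The study's methods use as wild type a MEF line with a tamoxifen-inducible conditional Eset1 deletion, so the control cells of that study carry the conditional allele of a gene for an H3K9 methyltransferase. The files held 1 list of enriched regions per mark and none for the input, with no score and no value per replicate, so every value below describes 1 map per mark, without a replicate error or a test.

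Vmn1r and Vmn2r genes encode the V1R and V2R families of G protein-coupled receptors, with which sensory neurons of the vomeronasal organ detect pheromones and other chemical cues. A vomeronasal neuron expresses one or a few of these genes and keeps the rest silent, and fibroblasts are not a place where they are known to act. V1R coding sequence lies in a single exon, while V2R genes have several exons for a large extracellular ligand-binding domain. H3K9me2 and H3K9me3 are hallmarks of heterochromatin, and clustered receptor families are among the gene families in which such chromatin has been described. The series holds no expression data, so the genes were recognised by symbol alone.

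The members differ in their marks even where their sequences hardly differ, as 4 neighbouring promoter windows show. Each is the RefSeq promoter window (GRCm38.p6, 250 bases before to 50 bases after the RefSeq start, 5′ to 3′) of a gene at the end of a chromosome 17 cluster. Vmn2r116, the receptor of the exocrine gland-secreting peptide ESP1, had no region of any mark within 1 kb of its start site, whereas Vmn2r114, Vmn2r115 and Vmn2r117 lay in regions of all 3 marks. Capitals mark the 17 positions at which the 4 windows differ.

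Vmn2r114, chr17:23312264-23312563, strand -: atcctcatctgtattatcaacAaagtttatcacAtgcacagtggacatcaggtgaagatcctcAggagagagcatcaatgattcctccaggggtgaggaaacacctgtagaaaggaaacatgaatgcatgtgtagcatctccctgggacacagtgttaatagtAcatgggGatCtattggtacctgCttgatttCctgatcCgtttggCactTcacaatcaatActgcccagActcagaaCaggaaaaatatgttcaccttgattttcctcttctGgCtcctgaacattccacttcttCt
Vmn2r115, chr17:23343727-23344026, strand +: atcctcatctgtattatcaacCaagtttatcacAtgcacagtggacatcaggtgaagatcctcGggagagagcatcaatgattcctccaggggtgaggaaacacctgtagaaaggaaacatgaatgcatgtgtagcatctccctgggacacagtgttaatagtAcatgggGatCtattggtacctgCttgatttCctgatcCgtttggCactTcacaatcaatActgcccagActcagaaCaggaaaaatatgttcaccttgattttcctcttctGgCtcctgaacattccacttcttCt
Vmn2r117, chr17:23479548-23479847, strand -: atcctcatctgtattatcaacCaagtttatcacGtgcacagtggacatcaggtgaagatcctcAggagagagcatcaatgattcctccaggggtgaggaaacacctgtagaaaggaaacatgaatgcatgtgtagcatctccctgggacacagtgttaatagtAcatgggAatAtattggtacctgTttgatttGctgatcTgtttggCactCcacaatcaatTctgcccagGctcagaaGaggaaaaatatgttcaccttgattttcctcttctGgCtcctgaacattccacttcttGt
Vmn2r116, chr17:23384553-23384852, strand +: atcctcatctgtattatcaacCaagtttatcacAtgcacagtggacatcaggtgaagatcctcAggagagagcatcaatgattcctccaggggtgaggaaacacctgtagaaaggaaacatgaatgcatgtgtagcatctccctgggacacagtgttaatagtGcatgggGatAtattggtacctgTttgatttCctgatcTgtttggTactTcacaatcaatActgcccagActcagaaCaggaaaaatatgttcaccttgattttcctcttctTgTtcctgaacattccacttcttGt

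Between Vmn2r114 and Vmn2r115 only 2 of 300 bases differed (99.3% identity), between either of them and Vmn2r116 9 bases differed (97% identity), and Vmn2r117 was 96% identical to Vmn2r114. Vmn2r116 stood alone at 4 of the 17 positions and Vmn2r117 at 7, so the unmarked window was not the one that differed most from the rest. The windows of the other 3 lay whole inside regions of every mark, and that of Vmn2r116 was covered by none. The regions nearest to the Vmn2r116 start site were 1.10 kb away for H3K9me3, 4.85 kb for H3K9me2 and 14.6 kb for H3K9me1, so that it fell just outside the 1 kb window for H3K9me3. Of its gene body, 18.9% lay in H3K9me1, 56.4% in H3K9me2 and 11.4% in H3K9me3 regions. Reads from such similar copies can fit more than 1 place: 77.8% and 77.5% of the 100-base words in the start site windows of Vmn2r114 and Vmn2r115 occurred once in the genome, against 91.1% for Vmn2r116 and 95.2% for Vmn2r117. The part of this in the called regions was not tested.

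A second pair of windows shows protein-coding members far apart in their marks, Vmn2r80 on chromosome 10 inside regions of all 3 marks, and Vmn2r102 on chromosome 17, whose nearest region of any mark was 95.8 kb away. Capitals mark CpG, the dinucleotide that DNA methylation targets.

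Vmn2r80, chr10:79148566-79148865, strand +: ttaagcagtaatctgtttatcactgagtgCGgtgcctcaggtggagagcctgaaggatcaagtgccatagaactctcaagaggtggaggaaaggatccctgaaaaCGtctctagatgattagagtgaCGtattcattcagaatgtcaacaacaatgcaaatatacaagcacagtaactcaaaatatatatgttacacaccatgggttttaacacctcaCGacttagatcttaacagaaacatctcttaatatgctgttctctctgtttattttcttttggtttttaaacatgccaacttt
Vmn2r102, chr17:19660149-19660448, strand +: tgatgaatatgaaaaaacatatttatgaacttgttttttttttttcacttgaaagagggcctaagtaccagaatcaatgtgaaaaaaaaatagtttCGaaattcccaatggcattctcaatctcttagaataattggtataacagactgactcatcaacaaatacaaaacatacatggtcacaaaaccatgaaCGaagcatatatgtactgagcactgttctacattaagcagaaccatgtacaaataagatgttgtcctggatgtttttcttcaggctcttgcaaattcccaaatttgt

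The Vmn2r80 window held 4 CpG and the Vmn2r102 window 2, with 38% and 32.3% G or C. Vmn2r114, Vmn2r115, Vmn2r80 and Vmn2r102 were chosen for display after their values were seen.

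The start sites of the vomeronasal receptor genes were met less often by H3K9me1 than those of all genes on these chromosomes, with a smaller gap for H3K9me2 and a share near the background for H3K9me3. A start site was counted as marked when a region came within 1 kb of it. By H3K9me1, 20 of 110 members were marked (18.2%, against 45.6% of all genes of the 9 chromosomes). For H3K9me2 the count was 21 (19.1%, against 26.4%), and for H3K9me3 it was 24 (21.8%, against 25.3%). Any mark met 33 members (30% against 59.7%), and 77 had none. These pooled counts lean on 1 locus, since 60 of the 110 members lie in a single chromosome 17 cluster. There H3K9me1, H3K9me2 and H3K9me3 met 2, 1 and 3 start sites. In the second cluster of that chromosome each mark met 4 of 14 (28.6%). All genes of chromosome 17 had 43.5%, 18.5% and 19.3%. No count without the cluster of 60 was made. Among protein-coding genes, H3K9me3 met 22.4% of the 67 members and 20.1% of all on the 9 chromosomes. Chromosome 10, which the lists cover most densely, carried 9 of these members and all of them were marked. Without it, 11, 12 and 15 of 101 members were marked by H3K9me1, H3K9me2 and H3K9me3, beside 41.7%, 21.3% and 20.4% of all genes on the other 8 chromosomes of the rule.

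By chromosome, the members stood on either side of the background. Any mark met 5 of 16 members on chromosome 5 (background 49.6%), 3 of 3 on chromosome 8 (74.1%), 9 of 9 on chromosome 10 (87.8%) and 5 of 6 on chromosome 14 (43.8%). On chromosome 17, which holds most members, 11 of 76 were marked, or 14.5%, against 57.5% of all genes there. The gap was widest for H3K9me1, with 7 of 76 members (9.21%) against 43.5% of the genes of chromosome 17. H3K9me2 met 6 (7.89% against 18.5%) and H3K9me3 met 7 (9.21% against 19.3%). The plot of marked start sites by chromosome sets these shares side by side.

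**Figure D1:**
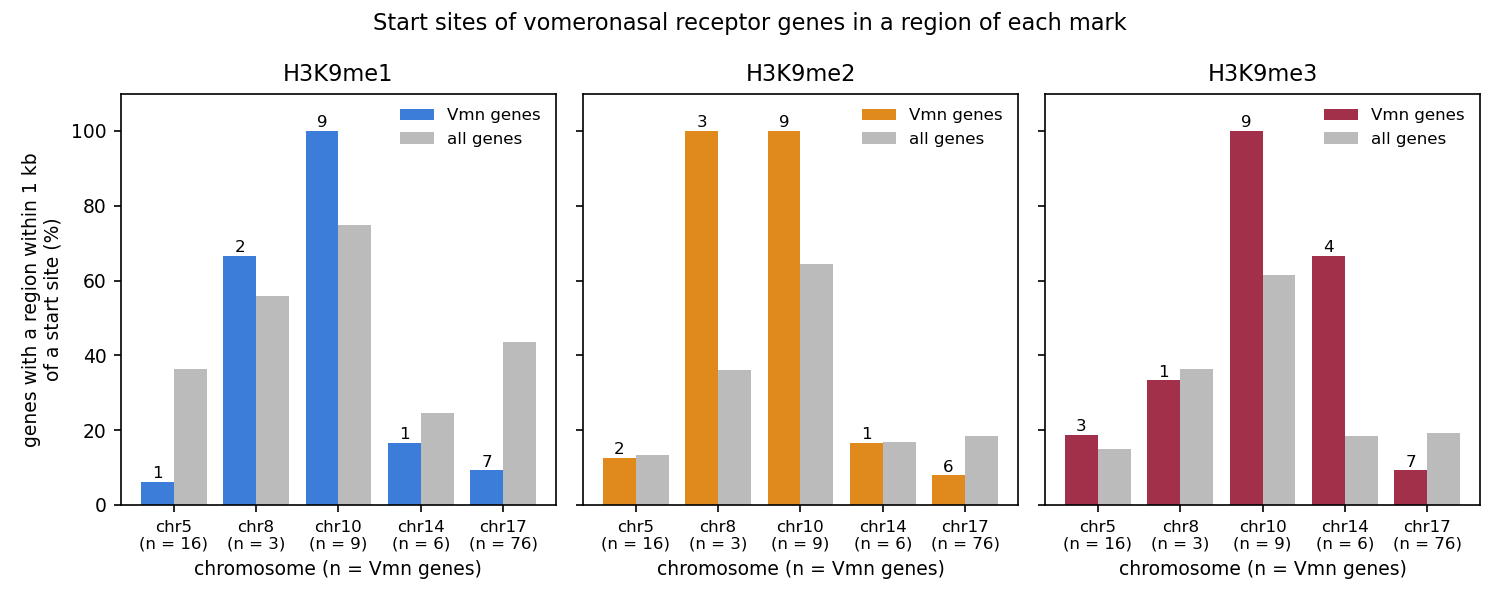
Share of genes with a region within 1 kb of a start site (y axis, percent) on the 5 chromosomes with members, 1 panel per mark. Coloured bars are the Vmn genes with their counts on top and gray bars all genes of the chromosome. The members reach 100% for every mark on chromosome 10 and stand below all genes for every mark on chromosome 17.

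The combinations of marks differed between chromosome 10 and the rest. All 3 marks met 14 start sites, of which 9 were on chromosome 10. The other 5 were the pseudogene Vmn2r-ps91 on chromosome 8 and, on chromosome 17, Vmn2r114, Vmn2r115, Vmn2r117 and the pseudogene Vmn2r-ps134. H3K9me3 alone was the next most frequent state, at 9 start sites that were spread over chromosomes 5, 14 and 17. H3K9me1 alone met 3 (Vmn1r-ps136, Vmn1r-ps149 and Vmn1r236, all of the V1R family), H3K9me2 alone 3 (Vmn2r-ps23, Vmn2r-ps89 and Vmn2r90), H3K9me1 with H3K9me2 3 (Vmn2r-ps26, Vmn2r-ps88 and Vmn2r118) and H3K9me2 with H3K9me3 1 (Vmn2r89). No member had H3K9me1 with H3K9me3 and without H3K9me2.

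On chromosome 10 all 9 members, 8 protein-coding Vmn2r genes and the pseudogene Vmn2r-ps92, lay in broad domains of all 3 marks. The cluster from Vmn2r80 to Vmn2r83 (chr10:79148769-79493585, 4 members) had 95.9% of its bases in H3K9me1, 97.4% in H3K9me2 and 99.8% in H3K9me3 regions. In the cluster from Vmn2r84 to Vmn2r87 (chr10:130377925-130497396, 4 members) these shares were 87.4%, 96.2% and 99.4%. The chromosome as a whole was covered to 56.5%, 58.9% and 58.8%, so the clusters lay above a level that was already high. A single H3K9me3 region of 329.25 kb (chr10:79117501-79446750) took in Vmn2r80, Vmn2r81 and Vmn2r82, and another of 153.75 kb (chr10:130381501-130535250) met Vmn2r84, Vmn2r85, Vmn2r86 and Vmn2r87. The longest stretch without H3K9me3 in either cluster was 0.75 kb, which is 1 bin of the lists. Among the 9 gene bodies the H3K9me1 share ran from 71.2% in Vmn2r85 to 100% in Vmn2r83 and Vmn2r-ps92. H3K9me3 covered 8 of the 9 whole and Vmn2r84 to 95.4%. The neighbourhood was marked too: the 500 kb before the cluster that starts with Vmn2r80 was covered by H3K9me3 to 87.3%, but the 500 kb after it only to 37.9%, while H3K9me1 covered 79.2% and 81.2%. The 500 kb before the cluster that starts with Vmn2r84 had 65.6%, 95.5% and 97.9% in H3K9me1, H3K9me2 and H3K9me3 regions. For H3K9me2 and H3K9me3 this was close to the cluster itself. After it the chromosome ends within 500 kb, and H3K9me3 covered 78.0% of that part.

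The largest cluster, from Vmn2r90 to Vmn1r-ps150 on chromosome 17 (chr17:17703747-21323766), held 60 members in 3620 kb and was mostly free of regions. H3K9me1 covered 1.86% of it, H3K9me2 8.33% and H3K9me3 15.5%, against 26.5%, 16.9% and 22.4% of the chromosome. Of the 60 members, 6 had a marked start site, and 40 had no region of any mark in their gene body, a share not taken over all genes. The marked ones were Vmn2r90 (H3K9me2), the pseudogenes Vmn2r-ps116 and Vmn1r-ps148 (H3K9me3), Vmn2r104 (H3K9me3), the pseudogene Vmn1r-ps149 (H3K9me1) and Vmn1r236 (H3K9me1). A run of 26 neighbours from Vmn2r-ps126 to Vmn1r234 had no marked start site, and 20 of these 26 had no region in the gene body either. H3K9me1 was absent from a stretch of 1575 kb that held 19 members whole, the 9th longest of 3162 gaps of H3K9me1 on the chromosome. H3K9me2 was absent over 1097.25 kb with 15 members, the 6th longest of 1551. No mark at all was called over 262.5 kb (chr17:19564501-19827000), a stretch with 4 members that includes Vmn2r102 and the pseudogene Vmn2r-ps122, the member farthest from any region at 99.9 kb.

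H3K9me3 regions of this cluster lay more between the members than in them. They covered 18.9% of the bases between the members and 7.54% of those in member bodies, which made up 29.3% of the span. The distance from a member's start site to the nearest H3K9me3 region had a median of 11.4 kb, against 78.0 kb for H3K9me2 and 204 kb for H3K9me1. The start sites nearest to a region without counting as marked were those of the pseudogene Vmn1r-ps147, at 1.00 kb from H3K9me2, and of Vmn1r234 at 1.09 kb. Other genes that overlap the span were marked more often than the members. Of 40 such genes, 20 had a marked start site, a share below the 57.5% of all genes of chromosome 17. Among them were 3 of 8 formyl peptide receptor genes of the Fpr family and 16 of 28 genes that are neither protein-coding nor of this family. The flanks were sparse as well, with H3K9me1 over 2.25% of the 500 kb before and 5.75% of the 500 kb after the cluster, and H3K9me3 over 8.05% and 8.17%.

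**Figure D2:**
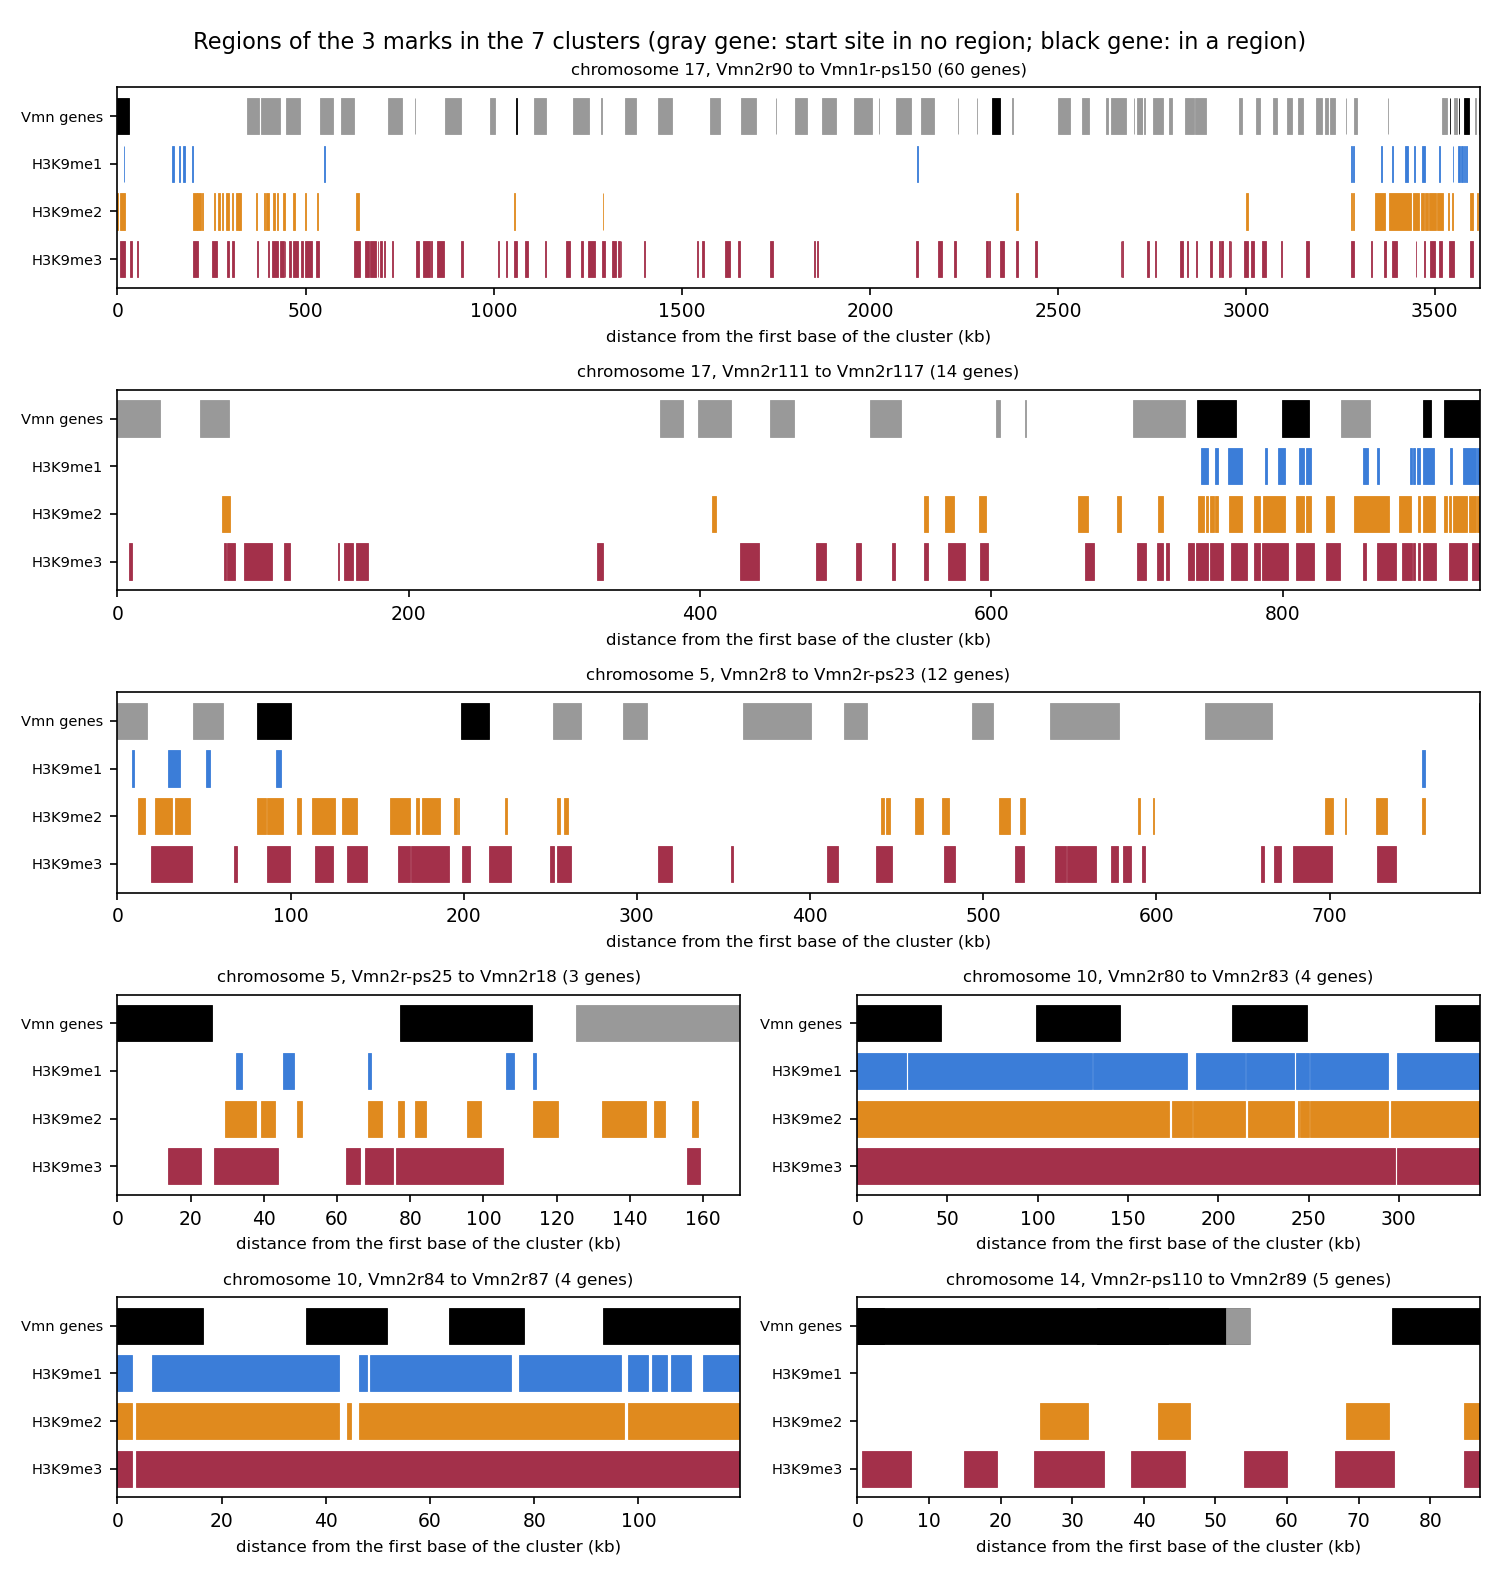
Maps of the 7 clusters, with distance from the first base of the cluster in kb on the x axis of each panel. The top track of each panel shows the Vmn genes (black where a region of any mark comes within 1 kb of a start site, gray otherwise) and the tracks under it the regions of H3K9me1, H3K9me2 and H3K9me3. The chromosome 10 clusters are filled almost end to end, while the chromosome 17 cluster of 60 members holds scattered short regions and a stretch of 1575 kb without H3K9me1.

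The second cluster of chromosome 17, from Vmn2r111 to Vmn2r117 (chr17:22544504-23479699), changed along its length. Its first 9 members, from Vmn2r111 to Vmn2r-ps133, had no marked start site and no H3K9me1 in the gene body, and lay in a stretch of 1206.75 kb without H3K9me1. In the neighbouring bodies from Vmn2r-ps128 to Vmn2r-ps131, only 27.7% to 56.3% of the 100-base words occurred once in the genome. In the other bodies of the first 9 this share ran from 75.98% (Vmn2r-ps133) to 100% (Vmn2r-ps132). In the last 5 bodies it ran from 79.8% (Vmn2r117) to 94.02% (Vmn2r116). The part of read placement in the change along the cluster was not tested. Of the last 5 members, Vmn2r114, Vmn2r115, Vmn2r-ps134 and Vmn2r117 had all 3 marks at the start site, and Vmn2r116 had none. The 4 marked bodies were covered to between 40.2% (Vmn2r115) and 100% (Vmn2r-ps134) by H3K9me1, 52.1% and 100% by H3K9me2, and 72.1% and 100% by H3K9me3. The marks came in separate regions rather than in 1 domain, and some H3K9me3 regions of this part lay between the genes. The widest of the H3K9me3 regions that meet Vmn2r115 measured 18 kb. Here H3K9me3 covered 30.2% of the bases in member bodies and 24.4% of those between them, the other way round from the larger cluster. Across the whole span, H3K9me1 covered 6.44%, H3K9me2 15.8% and H3K9me3 26.0%. The 500 kb after the cluster, which held 46 other genes, was covered to 54.4% by H3K9me1 and 11.96% by H3K9me3, and the 500 kb before it to 0.15% and 34.7%.

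Outside these clusters chromosome 17 held Vmn2r118 and Vmn2r120. Vmn2r118 had H3K9me1 and H3K9me2 at its start site, with 45.1% of the body covered by H3K9me2 and 45.2% by H3K9me3. Vmn2r120 had no mark within 1 kb, although H3K9me3 covered 59.0% of its body and began 2.51 kb from its start. For both genes the H3K9me3 lay away from the start site.

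On chromosome 5, H3K9me3 was the most extensive mark of both clusters and H3K9me1 the least. The cluster from Vmn2r8 to Vmn2r-ps23 (chr5:108791843-109578589, 12 members) had 2.00% of its bases in H3K9me1, 16.2% in H3K9me2 and 28.7% in H3K9me3 regions, against 19.2%, 10.36% and 16.5% of the chromosome. Only 3 members had a marked start site, the pseudogene Vmn2r-ps21 and Vmn2r10 (H3K9me3) and the pseudogene Vmn2r-ps23 (H3K9me2), and the 7 neighbours from Vmn2r11 to Vmn2r17 had none. Of these 7 unmarked genes, 4 had no region of any mark in the body, while H3K9me3 covered 65.5% of Vmn2r16, 54.8% of Vmn2r11 and 5.80% of Vmn2r17. The 500 kb before this cluster had the opposite order, with 43.2% covered by H3K9me1 and no H3K9me3 region. The 500 kb after it kept the order of the cluster, with 4.35% in H3K9me1, 5.25% in H3K9me2 and 19.4% in H3K9me3 regions. The smaller cluster from Vmn2r-ps25 to Vmn2r18 (chr5:151435966-151606021, 3 members) was covered to 4.85%, 28.7% and 41.5%, and its pseudogenes Vmn2r-ps25 (H3K9me3) and Vmn2r-ps26 (H3K9me1 and H3K9me2) were marked while Vmn2r18 was not. H3K9me3 covered 77.8% of the Vmn2r-ps26 body but came no nearer than 8.02 kb to its start.

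On chromosome 14 the cluster from Vmn2r-ps110 to Vmn2r89 (chr14:51377284-51464172, 5 records) had no H3K9me1 at all, 22.4% H3K9me2 and 51.7% H3K9me3. Vmn2r-ps110, Vmn2r88 and the longer record of Vmn2r-ps111 were marked by H3K9me3 alone, and Vmn2r89 by H3K9me2 and H3K9me3. The longer Vmn2r-ps111 record overlaps the other genes of the cluster except Vmn2r89, so the counts for these records are not separate observations. The nearest H3K9me1 regions lay between 132 kb and 172.5 kb from the 5 start sites. The sixth member of the chromosome, the pseudogene Vmn1r-ps136, lay outside the cluster and was the reverse case, marked by H3K9me1 alone over its whole body. The 3 members of chromosome 8 were scattered pseudogenes, all with H3K9me2 at the start site: Vmn2r-ps89 with H3K9me2 alone, Vmn2r-ps88 with H3K9me1 too, and Vmn2r-ps91 with all 3 marks.

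Counted by any overlap, gene bodies told more of H3K9me3 than the start sites did. Of 110 bodies, 50 were met by H3K9me3 (45.5%, against 31.3% of all genes of the 9 chromosomes), 36 by H3K9me2 (32.7% against 33.1%) and 28 by H3K9me1 (25.5% against 55.3%). The order of the marks was thus the reverse of that in all genes. Among protein-coding genes the shares were 55.2% for the members and 30.4% for all others by H3K9me3, and 28.4% against 72.9% by H3K9me1. The part of gene length in these counts was not tested. With at least 50% of the body covered, 25 members counted for H3K9me3 (22.7%, against 20.6% of all genes) and 14 for H3K9me1 (12.7% against 38.0%). Without chromosome 10, 16 of 101 members counted for H3K9me3 in this way, and the same share of all genes was not taken. The median share was 0 for each mark in all members, and 5.80% for H3K9me3 in the 67 protein-coding ones. No region of any mark met 50 bodies. The share of all genes with no region in the body was not taken, here or for such counts by cluster and family. Regions that met members of chromosomes other than 10 had a median width of 3 kb for 27 H3K9me1 regions, 4.5 kb for 55 H3K9me2 regions and 7.125 kb for 64 H3K9me3 regions, beside 4.5 kb, 4.5 kb and 5.25 kb in the whole lists. The widest measured 15.75 kb, 60.75 kb and 51 kb.

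**Figure D3:**
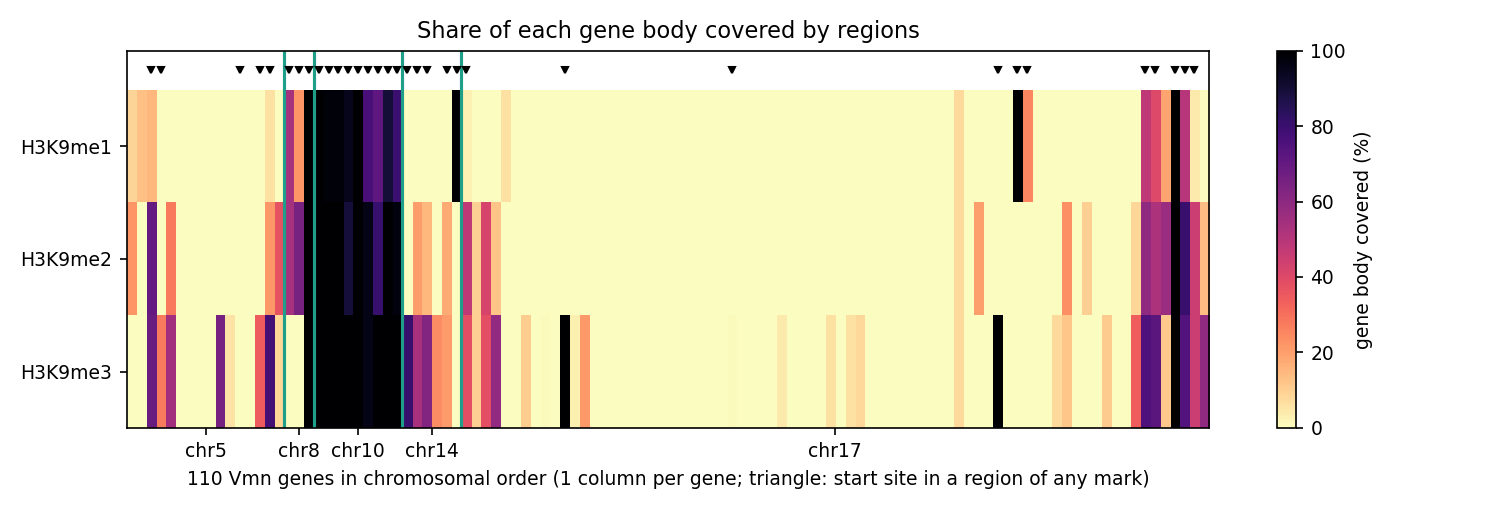
Share of each of the 110 gene bodies covered by regions of each mark (colour scale, percent), with 1 column per gene in chromosomal order and 1 row per mark. Black triangles stand for genes with a marked start site and green lines part the chromosomes. The 9 genes of chromosome 10 are dark in every row. On the other chromosomes together H3K9me3 meets 41 of 101 genes, H3K9me2 27 and H3K9me1 19, and the same shares of all genes were not taken.

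Within the gene body, H3K9me3 lay more often toward the 3′ end. Over the 45 protein-coding Vmn2r genes outside chromosome 10, H3K9me3 covered on average 9.83% of the first 25% of the body and 26.0% of the last 25%. The last 25% had the larger share in 20 genes, the first 25% in 6, and 19 were tied. For H3K9me2 the averages were 8.12% and 16.7% (11 and 4 genes, 30 tied) and for H3K9me1 5.20% and 4.93%. Protein-coding genes of other kinds showed less of this. Among those of at least 10 kb on chromosomes 5, 14 and 17 with H3K9me3 in the body, the last 25% had the larger share in 219 and the first 25% in 197 of 514 genes (averages 35.2% and 32.4%), beside 19 and 6 of 27 Vmn2r members of the same kind (39.6% and 14.98%). For H3K9me1 the other genes differed most between their ends, with 1070 against 381 of 1577 other genes higher in the last 25% and 2 against 3 of 9 Vmn2r members. Exons were covered about as much as whole bodies, with 20.4% of exon bases and 17.7% of body bases of the 45 genes in H3K9me3 regions.

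Outside chromosome 10, H3K9me3 was less frequent just inside the genes than upstream of them. On chromosomes 5 and 14, 3 of 13 protein-coding Vmn2r genes (23.1%) were in an H3K9me3 region at the 5′ end itself, 53.8% were in one 7 kb upstream, and none 1, 2 or 3 kb downstream. On chromosome 17, 12.5% of 32 genes were in H3K9me3 at the 5′ end, 34.4% at 7 kb upstream, between 3.13% and 12.5% at 1 to 6 kb downstream, none at 7 kb, 9.38% at 8 kb and 21.9% at 10 kb. The 7 kb position was the highest upstream in both sets, so the contrast with it is the largest. At 1 kb upstream the shares were 23.1% and 12.5%, as at the 5′ end, and at 20 kb upstream 15.4% and 15.6%. Each position stands for few genes, and neighbouring genes of a cluster share flanks.

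**Figure D4:**
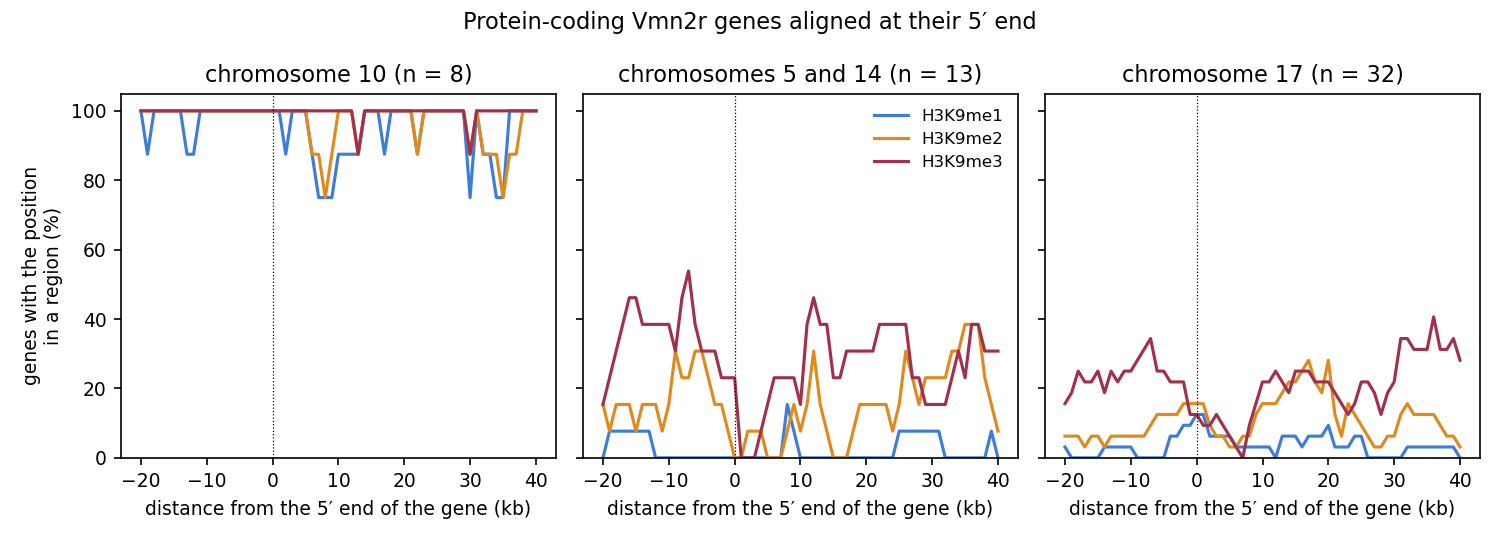
Share of protein-coding Vmn2r genes with a given position in a region (y axis, percent) against the distance from the 5′ end of the gene in kb (x axis, negative is upstream), for chromosome 10, chromosomes 5 and 14, and chromosome 17. Lines stand for the marks. On chromosome 10 H3K9me3 stays at 87.5% or above throughout, while elsewhere it is lower just downstream of the 5′ end than 7 kb upstream.

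The V1R and V2R families had different counts in these lists, though nearly all V1R members lay in 1 cluster. Of 25 Vmn1r members, H3K9me1 met 3 start sites, H3K9me3 met 1 and H3K9me2 met none, and 19 had no region in the body. Of 85 Vmn2r members, the counts were 17, 23 and 21, and 31 bodies had no region. All 9 members of chromosome 10 are Vmn2r genes with every mark. Without them, H3K9me1 met 8, H3K9me3 met 14 and H3K9me2 met 12 of 76 Vmn2r start sites. Beside these stand 41.7%, 20.4% and 21.3% of all genes on the rule's chromosomes other than 10. The part of chromosome in the family contrast was not tested. Within the shared chromosome 17 cluster the start sites were alike in number, with 3 of 24 Vmn1r and 3 of 36 Vmn2r members marked, but H3K9me3 met the body of 2 Vmn1r and 14 Vmn2r members there. Vmn1r bodies were shorter, with a median of 9.61 kb against 29.0 kb for protein-coding Vmn2r members, and the part of length in that count was not tested. The only protein-coding V1R gene with a marked start, Vmn1r236, had 25.4% of its body in H3K9me1.

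Pooled outside chromosome 10, pseudogenes and other members without a coding class had the larger share of marked start sites. It was 14 of 42 (33.3%), against 10 of 59 (16.9%) protein-coding members. Without chromosome 10, 55.9% of all genes and 59.6% of protein-coding genes were marked. With chromosome 10 the member shares were 34.9% of 43 without a coding class and 26.9% of 67 protein-coding ones. H3K9me1 then met the smaller share of those without a coding class, 16.3% against 19.4%. By mark and without chromosome 10, the counts were 6, 6 and 8 of 42 for H3K9me1, H3K9me2 and H3K9me3, and 5, 6 and 7 of 59. The classes were spread unevenly over chromosomes. On chromosome 8 all 3 members were marked pseudogenes. Chromosome 17 held 30 members without a coding class and 46 protein-coding ones. Of its 11 marked members, those without a coding class were Vmn2r-ps116, Vmn1r-ps148, Vmn1r-ps149 and Vmn2r-ps134, so the larger share was not seen there. The part of chromosome in the pooled difference was not tested. No protein-coding member outside chromosome 10 had its body covered whole by any single mark, whereas 4 of the 42 others did by H3K9me1 and 4 by H3K9me3, with lengths from 0.183 kb (Vmn1r-ps149) to 5.157 kb (Vmn2r-ps134).

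The clusters were rich in repeats and poor in G and C, unlike the chromosomes around them. Between 46.6% and 64.5% of the bases of each cluster were soft-masked as repeats, against 32.3% to 34.8% of the 5 chromosomes, and G or C made up 37.2% to 39.5% of the clusters, against 41.2% to 42.7%. The share of 100-base words that occur once in the genome ran from 78.2% in the cluster from Vmn2r111 to Vmn2r117 to 95.9% in the chromosome 14 cluster, beside 89.9% to 95.04% of the chromosomes. The cluster of 60 members stood at 92.5%, with 93.8% outside its H3K9me3 regions and 85.6% inside them. The order differed between clusters. It was 88.7% outside and 92.3% inside from Vmn2r8 to Vmn2r-ps23, but 91.4% and 60.0% from Vmn2r-ps25 to Vmn2r18. From Vmn2r111 to Vmn2r117 it was 79.1% and 75.4%, and in the chromosome 14 cluster 96.5% and 95.4%. The chromosome 10 clusters had almost no bases outside H3K9me3. At the start sites the median window was 100% unique for unmarked and 98.5% for marked members. Windows under 50% unique occurred for 3 members, Vmn2r-ps128, Vmn2r113 and Vmn2r-ps131, and none of these had a mark. Among the 98 members with at least 90% unique words, a choice made after seeing the data, 18, 19 and 20 were marked by H3K9me1, H3K9me2 and H3K9me3 and 29 by any mark. The part of read placement in these counts was not tested.

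The promoter windows of the members were alike in being poor in CpG. RefSeq windows were matched by symbol for 65 of the 110 members. They held a median of 1 CpG (range 0 to 4) against 7 in all 32851 windows of the table, and 40% of them had none, against 5.43%. The letters TATAAA, searched on both strands, were found in 19 of 65 windows (29.2%), against 13.6% of all windows. G or C made up a median of 35.7%, against 52.7%. Marked members had a median of 0.5 CpG and TATAAA in 7 of 18 windows, and unmarked members a median of 1 CpG and TATAAA in 12 of 47. Marked refers here to GENCODE start sites, and a RefSeq window need not lie at one. The window of Vmn1r236, a marked member, was covered by no mark.

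Other genes of the vomeronasal system on the same chromosomes were marked unevenly. H2-M class Ib genes, whose products are coexpressed with V2R receptors, had a mark at 9 of 9 start sites on chromosome 17, with H3K9me1 at 9, H3K9me2 at 8 and H3K9me3 at 2 (H2-M1 and H2-M9), beside 57.5%, 43.5%, 18.5% and 19.3% of all genes of the chromosome. Exocrine gland-secreted peptides of the Esp family, which include V2R ligands, were marked at 2 of 15 (Esp3 and Esp8, both H3K9me3, beside the same 57.5% for any mark). Of 7 Fpr genes chosen for this comparison, all on that chromosome, 3 were marked, which is a share below that background. Some of the 7 act as vomeronasal receptors. Fpr1 carried H3K9me1, and Fpr3 and Fpr-rs4 carried H3K9me2. The 8 counted in the largest cluster were all genes there whose symbol begins with Fpr. Among 5 genes of signal transduction only Gnao1, the G protein subunit of V2R neurons, was marked, by all 3 marks, beside 59.7% of all genes of the 9 chromosomes. The H2-M genes thus had H3K9me1 on the chromosome where the receptor genes had little of it.

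Other clustered families did not share 1 level. Olfactory receptor (Olfr) genes of the 9 chromosomes were marked at 48.2% of 569 start sites, with all 78 on chromosome 10 and 41.3% of 63 on chromosome 17. Without chromosome 10 the share was 39.9% for Olfr and 23.8% for the vomeronasal receptor genes. Beta-defensin (Defb) genes were marked at 89.7% of 29, with H3K9me3 at 79.3% and H3K9me1 at 6.90%. On the 12 other chromosomes, which the lists cover sparsely, 26 of 455 vomeronasal receptor genes were marked, or 5.71%, against 7.79% of all genes there. H3K9me3 met 24 of these 26, and 16 carried it alone. By that mark the share was 5.27% of the 455, against 2.96% of all genes there.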

How the data were processed

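ChIP-seq of H3K9me1, H3K9me2 and H3K9me3 was done in wild-type MEFs, with 2 samples per mark and 2 of input. Per the labels and the study's methods, the authors aligned reads to mm10 (GRCm38) with BWA 0.7.1 and called enriched regions with histoneHMM. The deposited lists hold chromosome, start and end only, with positions as their unit. How replicates and input entered the call is not given in the sources used here, and no depth is known for any region. All positions lay on a grid of 750 bp when read as 1-based and inclusive, with 0 off it. The files analysed here held 42704, 29119 and 27108 regions, which need not be every region the authors called. Columns with no sample map numbered 0.

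Start sites were those of GENCODE M21 transcripts. A gene was marked when a region met the 1 kb on either side of any start site. Clusters were runs of at least 3 members at most 500 kb apart, and shares were taken over bases other than N. Words of 100 bases were counted in the GRCm38 sequence, on both strands, in a count tested on simulated data. Promoter windows were RefSeq's.

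Genes named were all members of each combination of marks, or the 5 with the most covered body where more than 8 had it, the ends of each cluster, and the unmarked members nearest to and farthest from a region. Other members named were chosen after their values were seen. The members and lists were chosen with earlier results of these data known. Since 1 list stands for 2 replicates, no test was made. Python 3.11.15, NumPy 2.4.6, numba 0.67.0 and Matplotlib 3.10.9 were used. A list of transcription factors and guidance receptors of vomeronasal neurons is not reported here.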

Additional observations from a re-analysis of the deposited data

How the results depend on the processing

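No paired analysis was possible because both replicates of a mark share 1 list, and for the same reason no replicate could be left out. The counts of marked start sites stayed within 1.5 times of 20, 21, 24 and 33 (H3K9me1, H3K9me2, H3K9me3 and any mark) with other start site windows, the 5′ end as only start site, regions of at least 2 or 5 kb, joined regions, 50% of the window covered and starts read as 0-based. With protein-coding members only, H3K9me1 met 13, H3K9me3 met 15 and any mark met 18 of 67. Without chromosome 10, an alternative chosen after seeing the data, H3K9me1, H3K9me2 and H3K9me3 met 11, 12 and 15 of 101. With at least 50% of the gene body covered, the 28, 36 and 50 bodies became 14, 18 and 25, and with regions of at least 5 kb H3K9me1 met 15. Over the 7 clusters together, H3K9me1, H3K9me2 and H3K9me3 covered 9.68%, 18.1% and 26.5%. Clusters ended by gaps of 200 kb gave 10.63%, 19.1% and 28.1%, gaps of 1 Mb gave 16.0%, 23.7% and 31.7%, regions of at least 5 kb gave 8.11%, 15.2% and 23.7%, and without chromosome 10 the shares were 2.71%, 11.5% and 20.5%. The cause of these shifts was not tested. H3K9me1 covered the least and H3K9me3 the most of the clusters in each of these settings. Depth is unknown, so a start site without a region may be unmarked or below the caller's reach.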

Other observations

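Vomeronasal receptor genes outside the 9 chromosomes were looked at by chromosome, and the 2 chromosomes given here were picked after their values were seen. On chromosome 7, 12 of 240 such genes were marked, all of the V1R family and all with H3K9me3. That share was below the 7.79% of all genes with any mark on the 12 other chromosomes. It was above the 2.96% of those genes with H3K9me3. On chromosome 4, 6 of 12 were marked. The share of all genes on either chromosome alone was not taken. No test was made of either count.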
